A study of Mus musculus with 2 samples.

Results

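The imprinted Gnas domain was examined CpG by CpG in 2 mouse haploid embryonic stem cell lines. Gnas lies on chromosome 2 of build mm10 from 174284320 to 174346744, per RefSeq. Its members here were the CpGs of chromosome 2 between 174.27 and 174.36 Mb with at least 10 reads in both libraries. They numbered 276, of 475 CpGs of this interval listed in either library and of 1030368 compared CpGs of the genome. The line A129-2 has a 129Sv background and the line AOS-14 a C57BL/6 background, with 1 library each. Both lines were derived by cell sorting from AG-haploid embryos, taken here as androgenetic, so that the only chromosome set is that of a sperm. Strain and line differ together and cannot be told apart, no difference has a replicate check, and each test compares the reads of these libraries rather than the strains. The files hold no expression, so the cell type could not be checked by its expressed markers.

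Gnas encodes the alpha subunit of the stimulatory G protein, which couples hormone receptors to adenylyl cyclase. Alternative first exons of the locus also give the secretory protein Nesp55, the large subunit XL-alpha-s from Gnasxl, the untranslated exon 1A transcript and the antisense RNA Nespas. In mouse, the Nespas-Gnasxl and exon 1A regions gain methylation in the egg and are methylated on the maternal copy, while the Nesp promoter becomes methylated on the paternal copy after fertilisation. The promoter of Gnas exon 1 is known as unmethylated on both copies.

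The promoters with compared CpGs are shown because the gap between the lines was wide at the first and under 1 point at the second. Over the compared CpGs of these sequences, A129-2 averaged 2.34% at Nesp, against 10.2% in AOS-14, and 2.21% at Gnas exon 1, against 2.23% in AOS-14. Sequences are from RefSeq (GRCm38.p6, the assembly of mm10, plus strand, 5′ to 3′), and capitals mark the CpGs that had at least 10 reads in both lines. The Nesp promoter, chr2:174284070-174284369, holds 16 CpGs, of which 8 were compared and 2 of these lie in a CCGG motif. The Gnas exon 1 promoter, chr2:174329756-174330055, holds 40 CpGs, of which 26 were compared and 3 of these lie in CCGG.
Nesp: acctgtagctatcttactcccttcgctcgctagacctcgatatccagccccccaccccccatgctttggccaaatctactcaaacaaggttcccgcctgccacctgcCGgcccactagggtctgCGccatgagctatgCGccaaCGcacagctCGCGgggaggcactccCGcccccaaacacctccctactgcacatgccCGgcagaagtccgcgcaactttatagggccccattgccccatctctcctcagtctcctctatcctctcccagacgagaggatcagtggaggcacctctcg
Gnas exon 1: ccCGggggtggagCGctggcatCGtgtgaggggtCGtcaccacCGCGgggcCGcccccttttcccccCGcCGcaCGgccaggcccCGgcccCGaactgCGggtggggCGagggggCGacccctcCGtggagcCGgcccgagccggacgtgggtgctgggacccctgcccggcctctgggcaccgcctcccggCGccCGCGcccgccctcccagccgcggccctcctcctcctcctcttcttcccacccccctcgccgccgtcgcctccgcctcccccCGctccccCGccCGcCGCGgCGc

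The motif CCGG reads the same on both strands and was held by 52.8% of all 32851 promoter sequences of 300 bases in the RefSeq table. The Nesp sequence had more CpGs than 67.0% of them and the Gnas exon 1 sequence more than 96.1%. The exon 1A promoter sequence, with starts at 174327749 and 174327768, has 27 CpGs and no CCGG in the first of its overlapping windows. None of them was compared, and the nearest compared CpG to an exon 1A start lay 68 bp away. The annotated start of Nespas, at 174295436, was 837 bp from the nearest compared CpG. Values for Nespas-Gnasxl and exon 1A therefore come from sequence beside the Nespas and exon 1A starts and not from these starts themselves. The distance to the Gnasxl start was not measured, so whether that start was covered is not known here.

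Methylation across the domain was low in both lines. The mean level over the 276 CpGs stood at 4.67% in A129-2, against 5.29% in AOS-14, a difference of -0.62 points. Over all compared CpGs of the genome the means were 9.48% in A129-2 and 14.998% in AOS-14, and outside the CCGG motif 4.74% in A129-2 and 8.49% in AOS-14. In the flanks of 500 kb on each side, 456 CpGs averaged 11.3% in A129-2, against 16.8% in AOS-14, and outside CCGG 5.64% in A129-2, against 9.49% in AOS-14. No CpG of the domain reached 50% in either line, and the highest stood at 35.3% in A129-2 and 39.3% in AOS-14. A level averages the cells of a library, so full methylation in few cells and partial methylation in many cannot be told apart.

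The level of a CpG in this domain went with the motif around it. The 64 CpGs inside CCGG, the sequence at which a reduced representation library is cut, averaged 13.9% in A129-2, against 16.8% in AOS-14. The other 212 CpGs averaged 1.89% in A129-2, against 1.81% in AOS-14. By reads their order was turned, with 1.71% methylated in A129-2 and 1.92% in AOS-14. That difference was -0.21 points (95% counting interval -0.47 to 0.04). Every CpG at 25% or more lay in CCGG, 4 in A129-2 and 10 in AOS-14. This split was general: CpGs in CCGG averaged 18.9% in A129-2 and 27.9% in AOS-14 over the genome, and 20.2% in A129-2 and 28.3% in AOS-14 in the flanks. It was also present in mitochondrial DNA, where 7 CpGs in CCGG had means of 8.72% in A129-2 and 10.1% in AOS-14, and the 13 others 0.391% in A129-2 and 0.380% in AOS-14. The part of the motif itself in the levels at CCGG was not tested, so the elements and the Gnas promoters are given with and without it. Values of the neighbouring promoters, of the signalling genes and of whole gene intervals include it.

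Reads at these motifs were one-sided. Only 9 of the 64 CpGs in CCGG had at least 10 reads on each strand in both lines, against 166 of the 212 others. At these 166 CpGs the means were 1.80% on the plus and 1.84% on the minus strand in A129-2, against 2.22% on the plus and 1.70% on the minus strand in AOS-14. Grouped into runs with gaps of at most 100 bp, the compared CpGs formed 24 runs. Of the 19 runs with at least 3 CpGs, 18 ended at a CpG in CCGG and 11 also began at such a CpG.

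**Figure D1:**
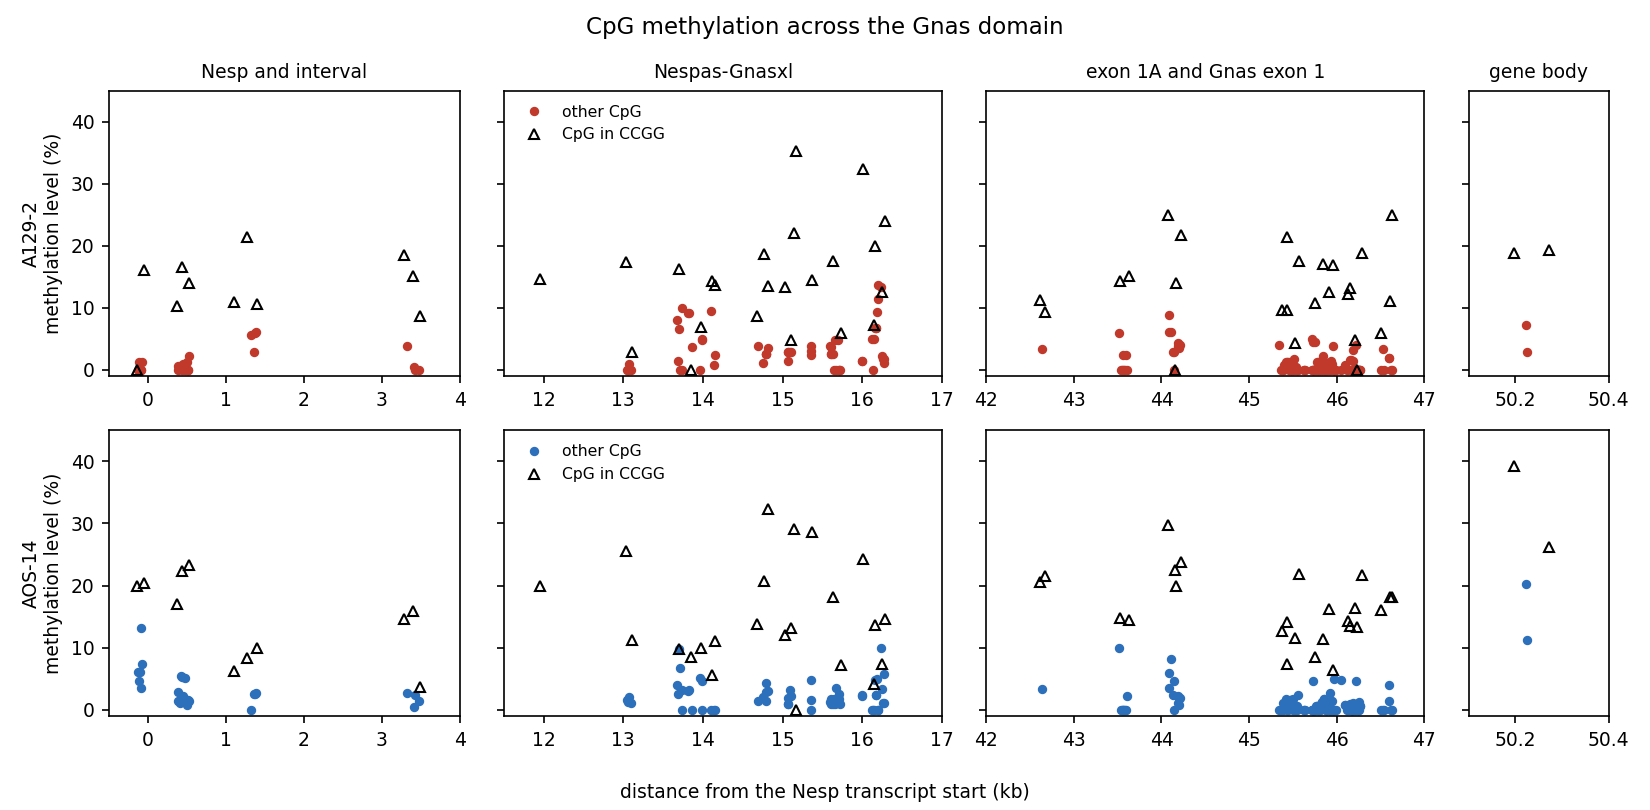
Methylation level in percent of each compared CpG against its distance in kb from the Nesp start, with A129-2 above and AOS-14 below. Triangles are CpGs in CCGG and filled points all others; the points lie near 0 in both lines at Gnas exon 1, while before the Nesp start AOS-14 has levels up to 13.2% outside CCGG, where A129-2 has at most 1.32%. The CpGs upstream and those between Gnasxl and exon 1A are not drawn.

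Calls of single CpGs were rare here. With a call set at 25 points of difference and an adjusted p below 0.05 (Fisher's exact test, Benjamini-Hochberg over all 1030368 CpGs), 0 of 276 CpGs were lower in A129-2 and 0 higher. The shares over the genome were 4.08% and 0.0297%. Only the 10 CpGs with at least 25% in AOS-14 could have been called lower. With the adjusted p as the only condition, 7 of 276 were lower in A129-2 and 0 higher, where the genome had 12.9% and 0.154%. Of these 7 CpGs, 3 lay in Nesp, 3 in the gene body and 1 near exon 1A. At an unadjusted p below 0.05, 17 of 276 passed, where the genome had 20.3%. Without regard to any test, 128 were lower in A129-2, 103 higher and 45 equal, or 46.4% lower, against 62.4% lower over the genome. Outside CCGG the counts were 85 lower, 82 higher and 45 equal, or 40.1% lower, against 53.1% over the genome.

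Nesp, the first exon of the maternally expressed secretory protein, was lower in A129-2 over its 5′ runs and, on few reads, higher in its last. It was covered by 31 CpGs from 174284177 to 174285723, which begins just before the annotated start of Gnas and lies within the antisense gene Nespas, which RefSeq lists as Gnasas1 (174281237 to 174295436). A129-2 averaged 4.18%, against 6.71% in AOS-14. Of the 31 CpGs, 23, or 74.2%, were lower in A129-2, against 62.4% over the genome. Outside CCGG, 19 of 2902 reads were methylated in A129-2, or 0.655% (exact 95% interval 0.395 to 1.02), against 96 of 3116 in AOS-14, or 3.08% (2.50 to 3.75). These intervals, which cover counting error only, did not overlap. Here and below, reads summed over CpGs count a read once at each CpG it covers, so such intervals are too narrow. The highest CpGs of the element lay in CCGG, at 174285592 with 21.4% in A129-2 against 8.33% in AOS-14, and at 174284851 with 7 of 50 reads in A129-2 against 14 of 60 in AOS-14, or 23.3%. CpGs in CCGG had 13.1% of reads methylated in A129-2 (10.4 to 16.1) and 18.6% in AOS-14 (15.5 to 22.0).

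The gap at Nesp was widest just before the transcript start. The first run holds 8 CpGs from 174284177 to 174284270, the capitals of the Nesp sequence above. All 8 were lower in A129-2, and outside CCGG the reads were 2 of 451 methylated in A129-2, or 0.443%, and 27 of 390 in AOS-14, or 6.92%. That difference was -6.48 points (95% counting interval -9.49 to -3.90). The CpG at 174284225, 95 bp before the start, had 0 of 77 reads methylated in A129-2 and 9 of 68 in AOS-14, a level of 13.2% there (Fisher's exact test, adjusted p = 0.00899). It had the highest level outside CCGG in this element in AOS-14.

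Past the start the difference was smaller. The second run, 16 CpGs from 174284689 to 174284851, had 15 CpGs lower in A129-2. Outside CCGG its reads were 11 of 2332 methylated in A129-2, or 0.472%, and 66 of 2582 in AOS-14, or 2.56%, a difference of -2.08 points (-2.81 to -1.40). The CpG at 174284749 had 0 of 289 reads methylated in A129-2 and 15 of 282 in AOS-14 (Fisher's exact test, adjusted p = 0.000391), and that at 174284738 had 2 of 290 in A129-2 and 15 of 276 in AOS-14 (adjusted p = 0.0097). Methylated reads were thus absent or nearly so in A129-2 at both CpGs.

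Farther downstream the order was turned, on few reads. The last run, 6 CpGs from 174285592 to 174285723, was higher in A129-2 at all 6 CpGs. Outside CCGG its 4 CpGs had 18 to 34 reads each in A129-2 and share reads, so their common direction is not independent. Summed over them, 6 of 119 reads were methylated in A129-2, or 5.04%, and 3 of 144 in AOS-14, or 2.08%. The interval of the difference (-2.05 to 8.81 points) includes 0. Between Nesp and Nespas, 7 CpGs from 174287606 to 174287815 had means of 6.63% in A129-2 and 5.86% in AOS-14. Outside CCGG that stretch had 3 of 768 reads methylated in A129-2 and 11 of 737 in AOS-14, so the directions of the mean and of these reads differ.

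**Figure D2:**
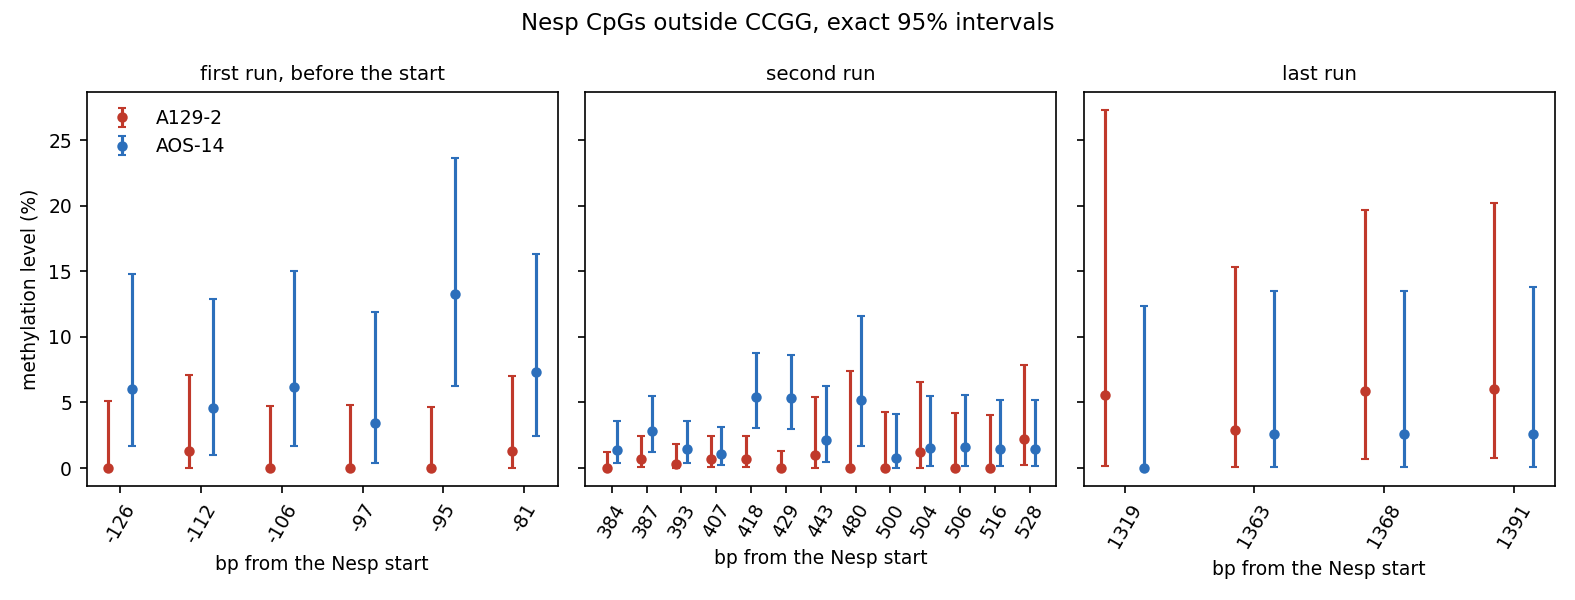
Methylation level in percent of the Nesp CpGs outside CCGG in A129-2 (left of each pair) and AOS-14, with exact 95% intervals from reads. AOS-14 is the higher line at all 6 CpGs of the first run and at 12 of 13 of the second run, and the lower line at all 4 of the last. CpGs of a run share reads and are not independent.

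Nespas-Gnasxl, the germline imprinted region that holds the start of the antisense transcript and the first exon of XL-alpha-s, was low in both lines and slightly higher in A129-2. The 85 CpGs of the region, from 174296273 to 174300606, had means of 6.57% in A129-2 and 5.65% in AOS-14. Of the 85 CpGs, 47 were higher in A129-2, 36 lower and 2 equal, or 42.4% lower, against 62.4% lower over the genome. None passed an adjusted p under 0.05, where the genome had 12.9% lower and 0.154% higher. Outside CCGG, 178 of 5969 reads were methylated in A129-2, or 2.98% (2.57 to 3.45), and 134 of 6475 in AOS-14, or 2.07% (1.74 to 2.45). With at least 50 reads in both lines, the mean difference turned to -1.06 points, and on the plus strand alone it was 0.0630 points, against 0.92 points with all reads.

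Runs within this region differed in direction. The run at 174297352 to 174297430 had 1 of 451 reads outside CCGG methylated in A129-2 and 11 of 728 in AOS-14, and all 7 of its CpGs were lower in A129-2. The run at 174299920 to 174300051 had 50 of 1771 reads outside CCGG methylated in A129-2, or 2.82%, and 28 of 1872 in AOS-14, a difference of 1.33 points (0.35 to 2.34). In the last run, from 174300446 to 174300606, 15 of 18 CpGs were higher in A129-2. There the CpG at 174300514 had 6 of 44 reads methylated in A129-2, or 13.6%, and 0 of 42 in AOS-14 (Fisher's exact test, adjusted p = 0.151). That CpG had the highest level outside CCGG of the region in A129-2, and its difference did not pass the test.

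At CCGG, the region had 14.7% of reads methylated in A129-2 (12.8 to 16.8) and 16.2% in AOS-14 (14.4 to 18.2). The widest gap upward was at 174299492, with 6 of 17 reads methylated in A129-2, or 35.3%, and 0 of 11 in AOS-14 (Fisher's exact test, adjusted p = 0.264). The widest gap downward was at 174299142, with 13.6% in A129-2 and 32.4% in AOS-14 (Fisher's exact test, adjusted p = 0.124). Neither passed, and both rest on a single CpG.

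Exon 1A, the other germline imprinted element, lies upstream of the Gnas promoter and its transcript is made from the paternal copy. Its 29 CpGs from 174326931 to 174328544 averaged 5.90% in A129-2, against 7.43% in AOS-14. The direction depended on the motif. Outside CCGG, 74 of 2170 reads were methylated in A129-2, or 3.41% (2.69 to 4.26), and 54 of 2509 in AOS-14, or 2.15% (1.62 to 2.80). In CCGG the levels were 13.1% in A129-2 (10.7 to 15.8) and 20.8% in AOS-14 (18.0 to 23.8).

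Runs of exon 1A had different levels. The run nearest its starts, 11 CpGs from 174327836 to 174327949, had 3 of 357 reads outside CCGG methylated in A129-2, or 0.840%, and 2 of 376 in AOS-14, or 0.532%. The run from 174328397 to 174328544 had 59 of 1463 such reads methylated in A129-2, or 4.03%, and 42 of 1834 in AOS-14, or 2.29%, a difference of 1.74 points (0.51 to 3.05). All 11 CpGs outside CCGG of this run had 10% or less in both lines. The highest level of exon 1A in either line was at 174328397, in CCGG, with 5 of 20 reads methylated in A129-2 and 14 of 47 in AOS-14. Its widest gap, at 174328476 and also in CCGG, did not pass (Fisher's exact test, adjusted p = 0.252). There 0 of 15 reads were methylated in A129-2 and 9 of 40 in AOS-14. The CpG at 174326988, in CCGG and inside the noncoding gene model Gm30189 (174320906 to 174327387), had 9.34% in A129-2, against 21.5% in AOS-14 (Fisher's exact test, adjusted p = 0.0255). Between Gnasxl and exon 1A, inside the same gene model, the CpGs at 174321920 and 174322076 had 15.8% and 9.09% in A129-2 and 30.2% and 37.0% in AOS-14. Both lie in CCGG, and the region had 30 reads in A129-2 and 70 in AOS-14.

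Gnas exon 1, which starts the transcript of the stimulatory G protein alpha subunit, had the lowest mean level over all its CpGs of the elements in both lines. It had 116 CpGs from 174329666 to 174330955, around the start at 174330006, and averaged 2.37% in A129-2, against 2.65% in AOS-14. Outside CCGG, 44 of 8195 reads were methylated in A129-2, or 0.537% (0.390 to 0.720), and 65 of 10163 in AOS-14, or 0.640% (0.494 to 0.814). The longest run, 106 CpGs over 940 bp, differed by -0.10 points outside CCGG (-0.33 to 0.13). No methylated read was found at 64 of the 116 CpGs in A129-2 and at 54 in AOS-14. CpGs in CCGG averaged 12.4% in A129-2 and 14.2% in AOS-14. The widest gaps, at 174329758 (21.4% in A129-2, 7.41% in AOS-14) and 174330554 (0 of 12 reads in A129-2, 6 of 45 in AOS-14), were both in CCGG and did not pass the test.

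The body of Gnas was covered at 4 CpGs only, from 174334518 to 174334592, and was lower in A129-2 at each. The gene table gives no exons, so it is not known here whether they are exonic or intronic. The mean was 12.1% in A129-2 and 24.2% in AOS-14. The CpG at 174334542 had 18 of 247 reads methylated in A129-2, or 7.29%, against 55 of 272 in AOS-14, or 20.2% (Fisher's exact test, adjusted p = 0.000431). Its strands differed, with 13 of 68 plus and 5 of 179 minus reads methylated in A129-2. In AOS-14 they had 31 of 115 plus and 24 of 157 minus reads methylated. That at 174334544, which lies beside it and shares reads with it, had 7 of 248 in A129-2 and 31 of 278 in AOS-14 (Fisher's exact test, adjusted p = 0.00240). That at 174334518, in CCGG, had 18.8% in A129-2, against 39.3% in AOS-14 (Fisher's exact test, adjusted p = 0.0398). Outside CCGG the difference was -10.6 points (-14.3 to -6.85). Upstream of Nesp, 2 CpGs at 174271285 and 174271314 had 9.38% and 24.6% in A129-2, and 13.1% and 30.6% in AOS-14. No CpG downstream of the gene was compared, and 9 were listed.

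**Figure D3:**
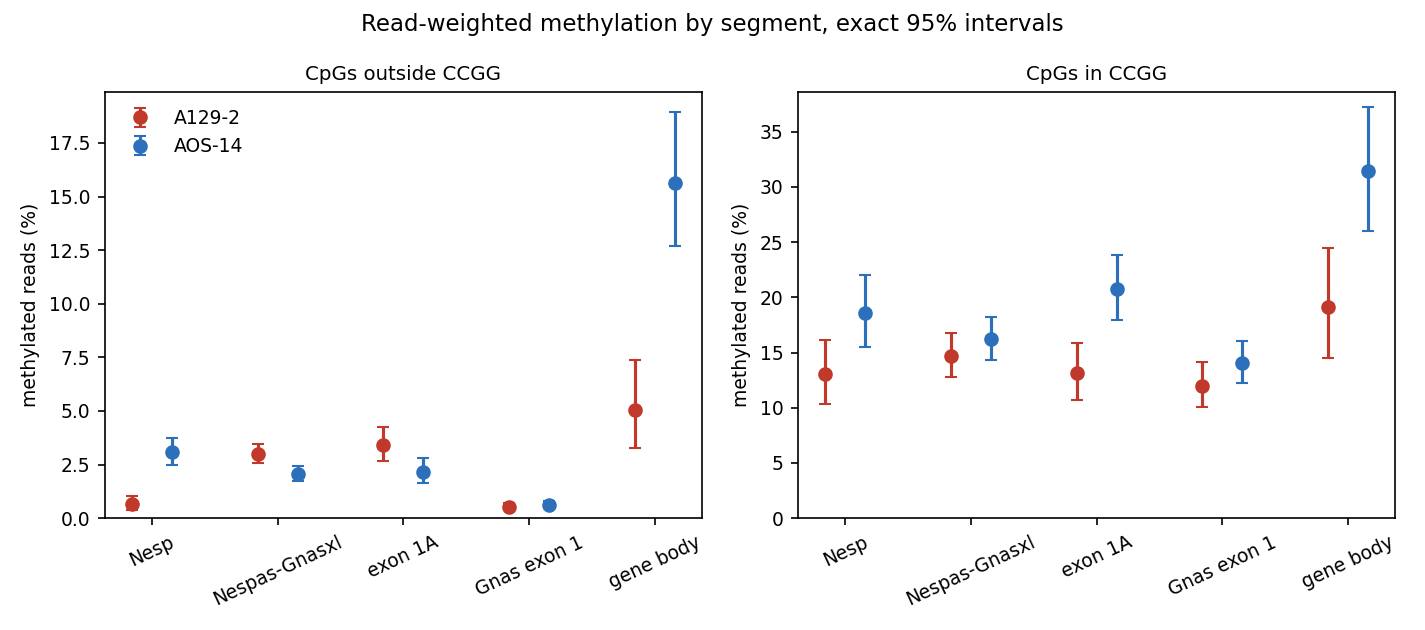
Methylated reads in percent of all reads for each element in A129-2 (left of each pair) and AOS-14, with exact 95% intervals, for CpGs outside CCGG and in CCGG. Outside CCGG, A129-2 is lower at Nesp and the gene body and higher at Nespas-Gnasxl and exon 1A, and the intervals overlap at exon 1A and Gnas exon 1. A read counts at each CpG it covers, so these intervals are too narrow.

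**Figure D4:**
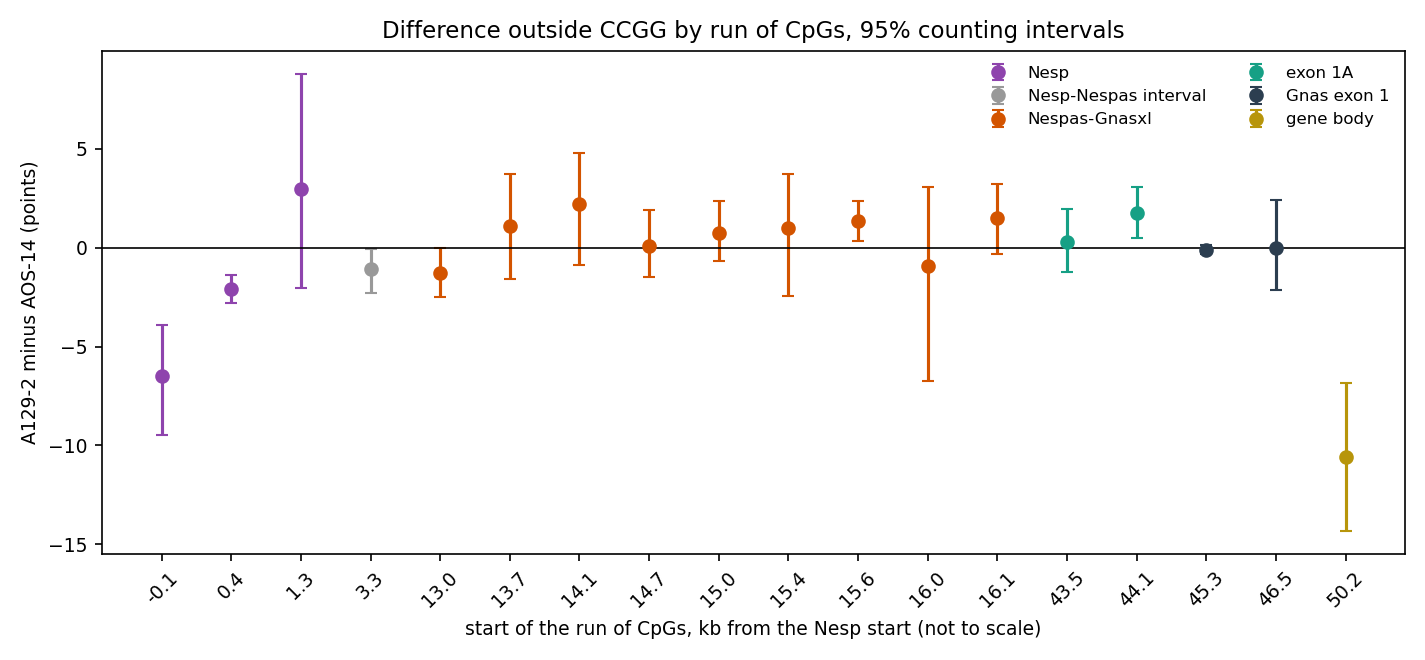
Difference of A129-2 minus AOS-14 in methylated reads outside CCGG, in percentage points, for each run with at least 2 such CpGs, with 95% counting intervals. The first Nesp run (-6.48 points) and the gene body run (-10.6 points) lie lowest, and runs of Nespas-Gnasxl and exon 1A lie between -1.29 and 2.23 points. A read counts at each CpG it covers, so these intervals are too narrow.

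Summed over fixed windows of 1 kb with at least 5 compared CpGs, the domain gave 11 windows. None passed both conditions of a call (5.04% of 51142 windows of the genome were called lower and 0.0137% higher). On the adjusted p only, 1 window was lower in A129-2 and 1 higher, where the genome had 55.1% and 1.14%. The lower window was that of the Nesp start, 24 CpGs at 174284177 to 174284851, where A129-2 averaged 2.76% and AOS-14 averaged 7.31% (Fisher's exact test, adjusted p = 3.36e-11), and 23 of 24 CpGs were lower in A129-2. The higher window was the 3′ end of Nespas-Gnasxl, 26 CpGs at 174300012 to 174300606, where A129-2 averaged 7.47% and AOS-14 averaged 4.55% (Fisher's exact test, adjusted p = 0.0101), and 17 of 26 CpGs were higher in A129-2. Outside CCGG the Nesp window averaged 0.498% in A129-2 and 3.82% in AOS-14, and the Nespas-Gnasxl window 4.62% in A129-2 and 2.36% in AOS-14. Neighbouring CpGs share reads, so p-values of sums are too small.

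The other windows, which did not pass, ranged from 2.31% to 9.04% in A129-2 and from 2.57% to 8.58% in AOS-14. For comparison, the genome's median window stood at 8.58% in A129-2, against 12.3% in AOS-14. The larger window of Gnas exon 1, with 87 CpGs, lay at percentile 13.2 of all windows in A129-2, against 8.45 in AOS-14. The window of the Nesp start lay at percentile 20.4 in A129-2 and 41.3 in AOS-14.

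Read as promoters, from 1 kb before to 0.5 kb after each start, the Gnas starts gave 3 values, none of them for Gnasxl. None passed both conditions of a call (0.239% of promoters of the genome were called lower and 0.0159% higher). The 19 CpGs of the Nesp promoter averaged 2.57% in A129-2, against 7.69% in AOS-14 (Fisher's exact test, adjusted p = 1.46e-10). The 14 CpGs of the exon 1A promoter averaged 4.57% in A129-2, against 6.20% in AOS-14 (Fisher's exact test, adjusted p = 0.0242). In its 4 CpGs in CCGG, 45 of 413 reads were methylated in A129-2, against 80 of 417 in AOS-14, while outside CCGG the order by reads was turned, with 15 of 707 in A129-2, against 12 of 675 in AOS-14. At the Nesp promoter the reads outside CCGG were 10 of 2435 in A129-2, against 85 of 2443 in AOS-14, and at Gnas exon 1 they were 40 of 7608 in A129-2, against 55 of 8595 in AOS-14. The 92 CpGs of the Gnas exon 1 promoter averaged 2.16% in A129-2, against 2.07% in AOS-14 (Fisher's exact test, adjusted p = 0.554). By the adjusted p only, 28.2% of the genome's promoters were lower in A129-2 and 0.653% higher. The median level of all tested promoters was 2.805% in A129-2 and 3.498% in AOS-14. The Gnas exon 1 promoter lay below these medians in both lines and the exon 1A promoter above them. The Nesp promoter lay below the median in A129-2 and above it in AOS-14.

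Promoters that flank the domain were low in both lines. Of 8 starts of 7 genes within 500 kb, a pair of which cover the same CpGs, none had an adjusted p below 0.05. By that condition 28.2% of all promoters were lower in A129-2 and 0.653% higher. The nearest on the left, Npepl1, an aminopeptidase gene, had 2.62% in A129-2 and 2.97% in AOS-14. The starts of Stx16, a syntaxin of the trans-Golgi network that lies beyond it, had 5.37% and 4.67% in A129-2 and 6.48% and 5.03% in AOS-14. On the right, the cathepsin gene Ctsz had 1.93% in A129-2 and 2.03% in AOS-14, and the ATP synthase gene Atp5e 3.40% in A129-2 and 3.63% in AOS-14. Prelid3b and the gene model Gm38546 share a promoter at 2.18% in A129-2 and 1.97% in AOS-14.

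Genes that act with the stimulatory G protein were read from a list of 44, of which 27 had 35 tested promoters. By the adjusted p only, 12 of 35 were lower in A129-2 and 0 higher, against 28.2% and 0.653% of all promoters. The median difference was -0.70 points in the list and -0.72 points over all promoters. The widest gaps downward were at Lhcgr, the receptor of luteinising hormone (14.1% in A129-2 against 27.1% in AOS-14, Fisher's exact test, adjusted p = 1.97e-25), and at the adenylyl cyclase gene Adcy4 (6.05% in A129-2 against 11.6% in AOS-14, adjusted p = 0.000365). Prkar1a, a regulatory subunit of protein kinase A, followed with 2.10% in A129-2 against 5.30% in AOS-14 at its upstream start (Fisher's exact test, adjusted p = 0.00715). The widest gaps upward, none of which passed, were at the G protein beta subunit gene Gnb1 (4.91% in A129-2 and 3.22% in AOS-14) and the adenylyl cyclase genes Adcy3 (2.78% in A129-2 and 2.15% in AOS-14) and Adcy9 (2.15% in A129-2 and 1.62% in AOS-14).

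Over the whole gene interval, 266 CpGs of Gnas averaged 4.64% in A129-2, against 5.02% in AOS-14. Among 5455 genes with at least 50 compared CpGs, Gnas lay at percentile 41.5 in A129-2, 28.8 in AOS-14 and 93.8 for the difference. The genes nearest to it in both means, over the 2 libraries, were Lhx8, Ankrd13b, Naa15, Ddx20 and Grb10, at distances of 0.113 to 0.155 points. As many as 325 of 4945 eligible genes lay within 1 point, so such nearness is common.

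The median depth of the compared CpGs of the domain was 65.5 reads in A129-2 and 85 in AOS-14, against 79 in A129-2 and 97 in AOS-14 over the genome. CpGs listed in only 1 library numbered 61 in A129-2 and 66 in AOS-14. At the depth threshold, 19 CpGs with 10 to 14 reads in the shallower library had means of 8.25% in A129-2 and 7.96% in AOS-14, and 26 CpGs with 5 to 9 reads, just outside it, 3.96% in A129-2 and 9.38% in AOS-14.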

How the data were processed

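Genomic DNA of 2 lines was measured, with 1 library each. Per the labels' protocols, a panel captured about 100 Mb and bisulfite libraries were read in pairs of 50 bp; the title instead calls the libraries reduced representation, and the labels do not settle which was made. Per the submitters' processing notes, BSMAP and mm10 were used; their versions, trimming and duplicate handling were not given in the sources used here. The authors deposited, per the file headers, a fraction of methylated reads per CpG and the counts behind it, in all and per strand. Levels were recomputed from the deposited counts in percent, and positions raised by 1. Summed over CpGs, with a read counted at each CpG it covers, totals were 153035567 read calls in A129-2 and 178315194 in AOS-14.

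CpGs needed 10 reads in both libraries, and windows and promoters 5 such CpGs. Fisher's exact test (two-sided) compared reads, and p-values were adjusted by Benjamini-Hochberg over all units of 1 kind in the genome. The test of single CpGs was run on simulated reads at the real depths, drawn independently at each CpG. Changes were simulated only at CpGs of intermediate level. Windows, promoters, shared reads and changes at levels as low as in this domain were not simulated. Exact binomial 95% intervals, and intervals of differences built from them by Newcombe's way of combining limits, cover counting error only. Over several CpGs they are too narrow, because a read counts at each CpG it covers. Means weigh CpGs equally; percentages beside reads weigh reads. The 9 segment bounds were written from general knowledge of mm10, and gene names and starts came from the RefSeq tables of GRCm38.p6. CpGs named are among those with the highest level or widest difference in an element or those past the adjusted threshold. Not every such CpG is named. Genes named are the nearest neighbours, the 3 widest gaps in each direction of the signalling list and the 5 genes nearest in level. The members and lists were chosen with earlier results of these data known. Tests ran in scipy 1.17.1 and numba 0.67.0 under Python 3.11.15, tables in pandas 2.3.3 with numpy 2.4.6, and plots in matplotlib 3.10.9. Alternatives varied the read minimum, weighting, motif, strand, depth, bounds, windows and size of difference.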

Additional observations from a re-analysis of the deposited data

Results flagged for a closer look

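CpGs of the domain that missed the depth minimum in at least 1 library were outside the comparisons. The values below are listed because more of their reads were methylated than a count of 0 allows (3 reads of the total). That rule asks only for a level above 0, so a listed value need not differ from the compared CpGs of its element. At exon 1A such CpGs had 14 of 55 reads methylated in A129-2, or 25.5% (exact 95% interval 14.7 to 39.0), and 28 of 905 in AOS-14, or 3.09% (2.07 to 4.44). All 14 methylated reads of A129-2 fell at 5 neighbouring CpGs from 174327955 to 174328002, where 14 of 18 reads were methylated, against 27 of 867 in AOS-14. Each of these CpGs had 2 to 4 reads in A129-2, and neighbouring CpGs share reads. No test was made. The compared CpGs of exon 1A had 5.78% of reads methylated in A129-2 and 6.53% in AOS-14.

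In the gene body, 5 of 29 reads were methylated in A129-2, or 17.2%, and 29 of 89 in AOS-14, or 32.6% (23.0 to 43.3). Elsewhere only the level in AOS-14 met the rule. Upstream of Nesp it was 3 of 15 reads in A129-2 and 4 of 12 in AOS-14, or 33.3%. At Nesp it was 1 of 49 reads in A129-2 and 6 of 95 in AOS-14, or 6.32%. At Nespas-Gnasxl it was 2 of 131 reads in A129-2 and 12 of 310 in AOS-14, or 3.87%. Between Gnasxl and exon 1A it was 2 of 14 reads in A129-2 and 6 of 14 in AOS-14, or 42.9%. None of these differences between the lines was tested. The compared CpGs in AOS-14 had 21.0% of reads methylated in the gene body, 19.6% upstream and 5.48% at Nesp. They had 4.64% at Nespas-Gnasxl and 32.9% between Gnasxl and exon 1A.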

How the results depend on the processing

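All values are differences of A129-2 minus AOS-14 in points of mean level. A change counts when it leaves a band around the value reported. That band is the 95% counting interval of the read-weighted difference, shifted onto the mean difference. The domain difference of -0.62 points became -1.04 with at least 5 reads, -1.43 with at least 50 reads and 0.0758 outside CCGG. It kept within its band (-0.96 to -0.28) under the other 6 alternatives. The unshifted interval, -1.16 to -0.48, holds -1.04. It does not hold -0.38 (thinned to equal depth) or -0.30 (minus strand only). Outside CCGG the read-weighted difference was -0.21 points, so the sign there depends on the weighting. Nesp became -3.82 with at least 50 reads and was lower in A129-2 under all 12 alternatives. Nespas-Gnasxl became -1.06 with at least 50 reads and 0.0630 on the plus strand. Exon 1A became 0.587 outside CCGG and -0.267 on the plus strand, Gnas exon 1 0.119 on the plus strand and the gene body -16.5 with at least 5 reads. The 2 CpGs upstream became -16 on the plus strand, and the interval between Gnasxl and exon 1A -0.376 with bounds moved 0.5 kb left. That interval gave no value outside CCGG, on dense runs or at 20 or 50 reads; dense runs also gave none upstream, between Nesp and Nespas or in the gene body. The cause was not tested, except that moved bounds and read minimums change which CpGs enter. Calls of CpGs lower in A129-2 numbered 7 of 276 with no minimum difference, where the genome had 12.9%. With a minimum of 10 points they numbered 4, and the genome's share at that minimum was not counted. With no minimum, 1 of 11 windows was lower and 1 higher, where the genome had 55.1% and 1.14%. The counts were 0 under the remaining alternatives. No paired analysis was possible because each line has 1 library. Depth limits what single CpGs can show, and the body of Gnas rests on 4 of them.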
